A study of Homo sapiens with 6 samples.

Results

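Secreted proteins of complement, coagulation and the acute-phase response are encoded by FGA, FGB, FGG, C3, CFB, SERPINA1, SERPINA3, CP and LCN2, and their mRNAs are described here in A549 cells, an epithelial line from a human lung adenocarcinoma. The 9 genes were taken by symbol from a table of 19990 gene symbols, and all 9 had a row. The study was set up to ask how TIMM13, a small chaperone for protein import into mitochondria, acts on cell proliferation. RNA was sequenced as poly(A)-selected, strand-specific libraries from cells given TIMM13 siRNA 1 (2 libraries), TIMM13 siRNA 2 (2 libraries) or a non-targeting control siRNA (2 libraries). The groups rest on the sample titles, which match the siRNA labels. The table heads the control columns NC, and all 6 samples carry the treatment entry cell differentiation, with no further description. The control samples are labelled WT and the others TIMM13 knockdown, and nothing states whether replicates were separate cultures, so p-values measure only the spread between these samples.

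Fibrinogen is a hexamer of paired alpha, beta and gamma chains, made mainly by hepatocytes and cleaved by thrombin to form the fibrin clot. Complement C3 is the protein on which all complement activation routes converge, and factor B (CFB) supplies the protease of the alternative-pathway convertase. Alpha-1-antitrypsin (SERPINA1) and alpha-1-antichymotrypsin (SERPINA3) inhibit serine proteases of neutrophils. Ceruloplasmin (CP) carries copper and oxidises iron, and lipocalin 2 (LCN2) binds the iron-carrying siderophores of bacteria. Most of these genes respond in liver to interleukin-6, interleukin-1 or both, through STAT3, NF-kB and C/EBP factors, while HNF1 maintains their hepatic transcription. Lung epithelial cells can also make several of them.

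The fibrinogen genes lie side by side within 50.0 kb of chromosome 4 (GRCh38, GENCODE release 29): FGB at 154562956 to 154571086 on the plus strand, FGA at 154583126 to 154590766 and FGG at 154604134 to 154612967, both on the minus strand. The bases just upstream of their RefSeq starts are shown because these neighbours had the profiles nearest to each other among the 9. Each line gives the 250 bases before the annotated start, 5′ to 3′ on the strand of the gene (RefSeq, GRCh38.p14). Capitals mark letters that match 1 of 5 motifs searched on both strands: CTGGGA, the core of the interleukin-6 response element; TTCNNNGAA for STAT factors; TTGCNNAA for C/EBP; and the NF-kB and HNF1 motifs. The window of SERPINA1 before the more downstream of its 2 starts follows, since that gene passed the test with the other siRNA.
FGA, chr4:154590743-154590992, minus strand: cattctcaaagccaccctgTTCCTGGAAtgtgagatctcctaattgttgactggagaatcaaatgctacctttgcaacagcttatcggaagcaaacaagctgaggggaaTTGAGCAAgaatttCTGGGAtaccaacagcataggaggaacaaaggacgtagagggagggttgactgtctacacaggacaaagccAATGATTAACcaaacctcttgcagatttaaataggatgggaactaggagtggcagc
FGB, chr4:154562761-154563010, plus strand: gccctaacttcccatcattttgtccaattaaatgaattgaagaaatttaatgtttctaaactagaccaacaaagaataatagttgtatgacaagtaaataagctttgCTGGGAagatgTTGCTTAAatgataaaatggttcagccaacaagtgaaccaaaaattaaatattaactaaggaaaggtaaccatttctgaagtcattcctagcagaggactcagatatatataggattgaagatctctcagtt
FGG, chr4:154612657-154612906, minus strand: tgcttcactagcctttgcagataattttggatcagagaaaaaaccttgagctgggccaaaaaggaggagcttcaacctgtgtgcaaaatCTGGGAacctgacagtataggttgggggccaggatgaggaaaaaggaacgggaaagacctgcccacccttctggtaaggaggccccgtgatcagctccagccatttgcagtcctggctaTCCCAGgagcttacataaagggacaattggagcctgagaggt
SERPINA1, chr14:94388603-94388852, minus strand: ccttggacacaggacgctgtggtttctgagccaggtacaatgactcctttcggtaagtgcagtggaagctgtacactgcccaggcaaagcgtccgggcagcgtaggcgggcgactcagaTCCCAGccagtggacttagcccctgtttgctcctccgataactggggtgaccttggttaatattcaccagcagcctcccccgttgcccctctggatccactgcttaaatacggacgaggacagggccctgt

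All 3 fibrinogen windows held CTGGGA, FGA once at 127 to 122 bases before the start, FGB once at 143 to 138 and FGG in 2 places, at 161 to 156 and 42 to 37. That hexamer is common: 28.7% of all 35116 promoter windows in the table held it. In FGA and FGB a C/EBP match lay within a few bases of it, at 141 to 134 and 132 to 125 bases before the start, and 9.05% of all windows held such a match. FGA also had a STAT match at 231 to 223 (6.57% of all windows) and an HNF1 match at 56 to 47 (0.296% of all windows). FGB has a further annotated start 31 bases upstream, with the same matches in its window. SERPINA1 had CTGGGA at 131 to 126 before the start shown and no match before its other start, 2033 bases away. CFB had a STAT match at 92 to 84, LCN2 a C/EBP match at 143 to 136, and SERPINA3 none. The NF-kB motif was in none of the 7 members' windows and in 1.73% of all windows. C3 and CP are named only. A match describes letters and not a bound site.

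The deposited values are an abundance per gene, scaled by the authors to library depth and apparently to gene length, and they carry no unit name because none is stated. Depth is unknown, and column totals ran from 205986 to 219820 in 5 libraries and reached 299936 in siRNA 2 replicate 2. The siRNA 2 replicates were also further apart than the others: the median SD between replicates was 0.102 log2 units in siRNA 1, 0.320 in siRNA 2 and 0.0864 in control. TIMM13 itself was 2.09 and 1.83 in the siRNA 1 libraries, 1.82 and 2.31 in the siRNA 2 libraries and 2.09 and 2.56 in the control libraries (limma adjusted p = 0.653 for siRNA 1 and 0.666 for siRNA 2 against control), so TIMM13 was not detectably lower and the groups below are named by their siRNA labels only. TIMM13 overlaps LMNB2 on the same strand, and how shared reads were counted is not stated, so its value is uncertain. In simulated data the fit called 2.99% of 2-fold changes in value + 1 for either siRNA against control. Those changes were placed on genes more abundant than TIMM13, so this share does not hold for TIMM13. Whether the fit would call a 2-fold fall of TIMM13 was not tested, and such a fall could be missed. All 6 epithelial markers averaged at least 1, summing to 1703 to 1796 in siRNA 1, 2143 and 3234 in siRNA 2, and 1552 and 1697 in control. Of 8 alveolar type II markers, 1 averaged at least 1, and the surfactant gene SFTPA1 was listed at 0 in all 6 libraries. Of 8 hepatocyte markers only CPS1 averaged at least 1, at 23.2 to 36.1 across the libraries, while ALB did not exceed 0.563. Leukocyte markers summed to 2.61 and 3.51 in siRNA 1, 7.29 and 7.59 in siRNA 2 and 4.86 and 5.03 in control, most of it CD14, with CD3E at 0. Fibroblast markers summed to 2.78 and 3.02 in siRNA 1, 2.83 and 4.75 in siRNA 2 and 1.00 and 1.01 in control, and endothelial markers to no more than 0.132 in any library. The part of these differences in the results was not tested, and in bulk RNA fewer cells of a type and less RNA per cell cannot be told apart.

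Fibrinogen mRNAs were the most abundant of the 9 and stood higher in every siRNA library than in either control library. Of all tested genes, 36.8% had both siRNA 1 libraries above both controls, and 33.7% had both siRNA 2 libraries above them. The share with all 4 siRNA libraries above both controls was not counted. FGA, the alpha chain, had 72.1 and 68.6 in the siRNA 1 libraries and 93.2 and 121 in the siRNA 2 libraries, against 34.2 and 33.9 in the control libraries. The control replicates lay within a few percent of each other, and neither siRNA group overlapped them. The means were 70.3 ± 2.44 for siRNA 1, 107 ± 19.6 for siRNA 2 and 34.1 ± 0.254 for control (SD, n = 2), which is 2.06 and 3.14 times the control. FGA rose with siRNA 2 (log2 fold change 1.61, SE 0.192, limma adjusted p = 0.0394 over 11486 genes), in a comparison that called 3% of genes, 1.24% higher and 1.76% lower. With siRNA 1 the log2 fold change was 1.02 (SE 0.192, adjusted p = 0.0828) and did not pass. The siRNA 2 call was lost in 10 of 14 other settings, to adjusted p = 0.0655 with upper-quartile scaling, 0.0924 with equal column totals, and 0.158 to 0.225 without either control or either siRNA 1 library. The log2 fold change with siRNA 2 was 1.80 without siRNA 2 replicate 1 and 1.43 without siRNA 2 replicate 2. Each of these fits keeps 1 siRNA 2 library, so the spread comes from the other groups.

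FGB, the beta chain, had 27.9 and 21.7 in siRNA 1 and 32.0 and 41.6 in siRNA 2, against 12.3 and 13.6 in control. Both siRNA groups were clear of the control values and of each other. Of all tested genes, 30.8% likewise had both siRNA 1 libraries below both siRNA 2 libraries. By limma FGB differed from control by 0.88 on the log2 scale with siRNA 1 (SE 0.225, adjusted p = 0.131) and 1.43 with siRNA 2 (SE 0.225, adjusted p = 0.0538), neither past the threshold. FGG, the gamma chain, had 16.3 and 16.8 in siRNA 1 and 21.3 and 41.1 in siRNA 2, against 11.05 and 12.14 in control. The order of the groups was the same as for the other chains, but the siRNA 2 replicates lay 1.93-fold apart, against 1.30-fold for FGA and 1.30-fold for FGB. For FGG the fitted change was 0.48 with siRNA 1 (SE 0.339, adjusted p = 0.508) and 1.28 with siRNA 2 (SE 0.339, adjusted p = 0.111). Without siRNA 2 replicate 1 and without siRNA 2 replicate 2, the siRNA 2 values were 1.61 and 1.24 for FGB and 1.74 and 0.82 for FGG. In siRNA 2 replicate 1, whose column total lay with the others, FGA, FGB and FGG were 2.74, 2.47 and 1.84 times their control means.

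**Figure D1:**
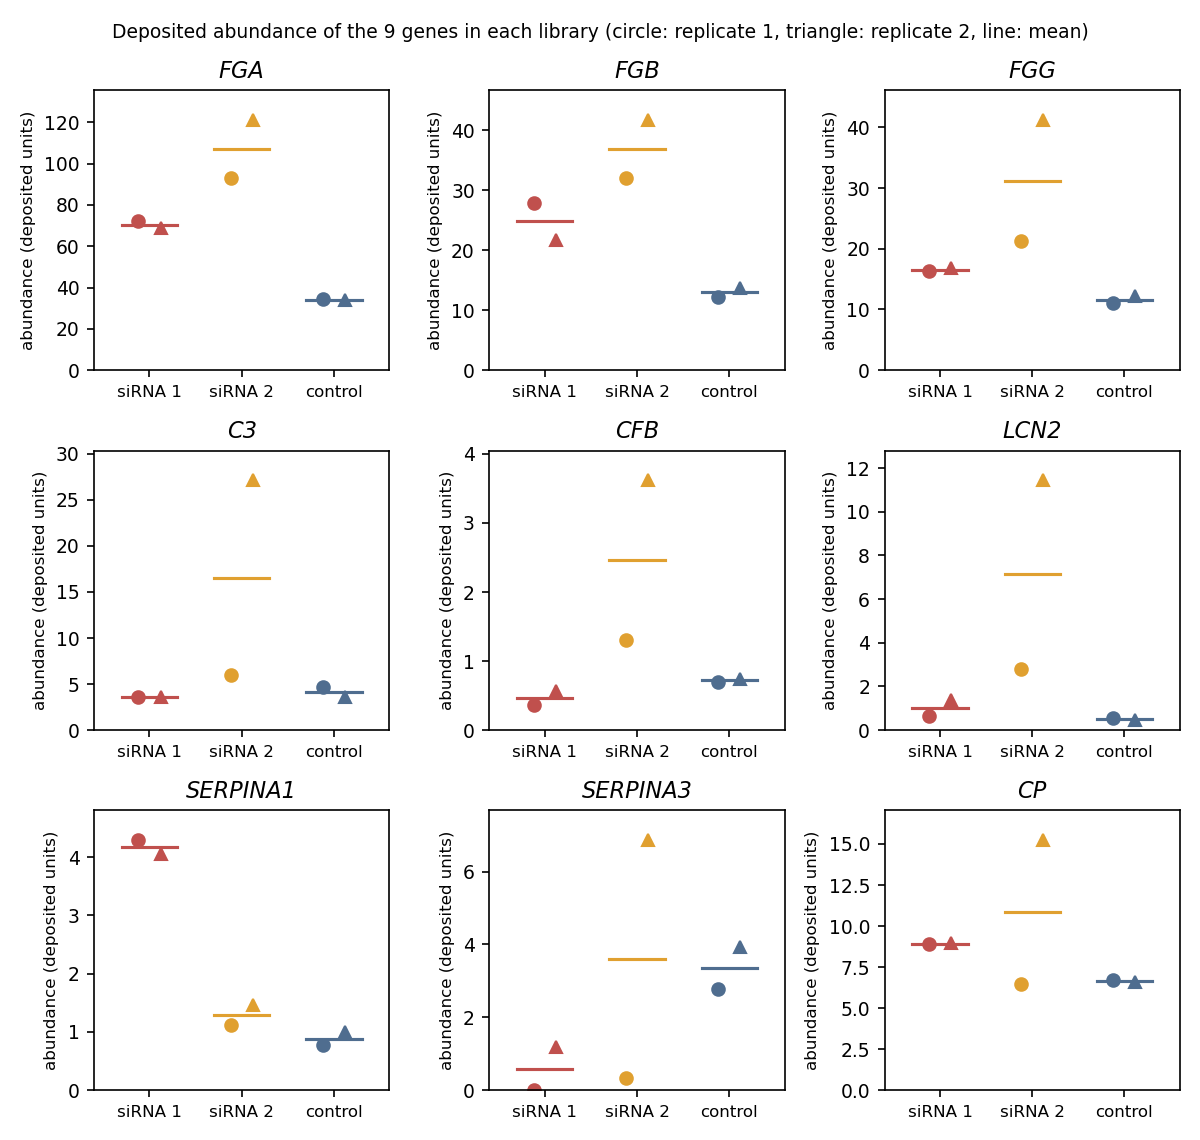
Deposited abundance (y axis, starting at 0) of each of the 9 genes in the siRNA 1, siRNA 2 and control libraries; circles are replicate 1, triangles replicate 2 and lines the group means (n = 2). The 3 fibrinogen genes stand above control in all 4 siRNA libraries, and SERPINA1 is high in the siRNA 1 libraries. The library siRNA 2 replicate 2, which has the largest column total (299936), is the highest for 8 of the 9 genes. The share of all genes highest there was not counted.

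The proportions of the chains can be read as long as the values are scaled to length, as they appear to be. Summed over the chains, fibrinogen mRNA came to 116 and 107 in siRNA 1, 147 and 204 in siRNA 2 and 57.6 and 59.7 in control. FGA was the most abundant chain in every library, with 59.4% to 64.0% of the sum in siRNA libraries and 56.8% and 59.5% in control. The FGA to FGB ratio was 2.58 and 3.16 in siRNA 1, 2.91 and 2.90 in siRNA 2 and 2.79 and 2.48 in control, so the groups overlapped. The FGG to FGB ratio was 0.585 and 0.774 in siRNA 1, 0.665 and 0.988 in siRNA 2 and 0.901 and 0.889 in control. Here both siRNA 1 libraries and siRNA 2 replicate 1 lay under the control values and siRNA 2 replicate 2 above them. The chains took up 84.4% and 86.7% of the summed abundance of all 9 genes in siRNA 1, 89.0% and 75.6% in siRNA 2 and 78.1% and 78.5% in control.

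**Figure D2:**
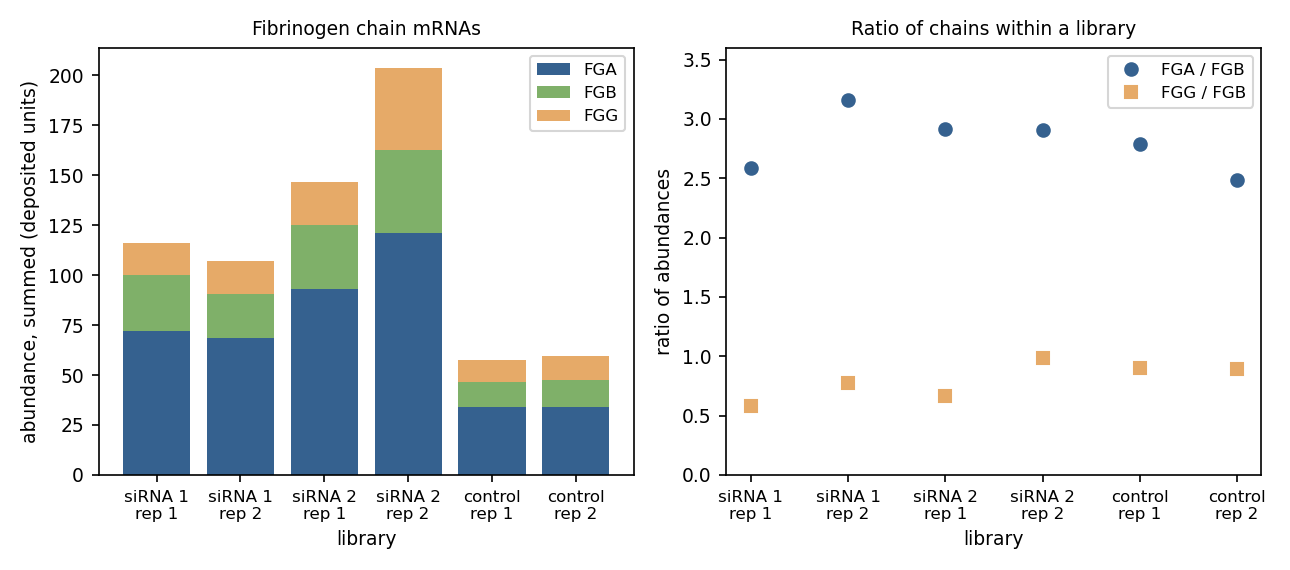
Left, abundance of FGA, FGB and FGG stacked for each library, from a y axis at 0; right, the ratio of FGA and of FGG to FGB within each library. The summed level is 57.6 and 59.7 in control and at least 107 in every siRNA library, while the FGA to FGB ratio stays between 2.48 and 3.16.

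The complement genes gave no call with either siRNA, and their highest values came from siRNA 2 replicate 2. C3 had 3.65 and 3.63 in siRNA 1 and 6.03 and 27.1 in siRNA 2, against 4.66 and 3.63 in control. The siRNA 1 libraries sat at the lower control value, and the siRNA 2 replicates were 4.49-fold apart. For C3 limma fitted log2 fold changes of −0.14 with siRNA 1 (SE 0.693, adjusted p = 0.944) and 1.46 with siRNA 2 (SE 0.693, adjusted p = 0.269), neither past the threshold. The siRNA 2 value was 2.46 without siRNA 2 replicate 1 and 0.46 without siRNA 2 replicate 2. CFB had 0.371 and 0.560 in siRNA 1 and 1.31 and 3.62 in siRNA 2, against 0.702 and 0.741 in control. Its siRNA 1 values lay under and its siRNA 2 values over both controls, all at low abundance. For CFB limma gave −0.24 with siRNA 1 (SE 0.356, adjusted p = 0.783) and 0.92 with siRNA 2 (SE 0.356, adjusted p = 0.202). The second was 1.42 without siRNA 2 replicate 1 and 0.42 without siRNA 2 replicate 2. C3 (chromosome 19, 6677704 to 6730562, minus strand) overlaps GPR108 on the same strand, which ran from 2.82 in siRNA 2 replicate 1 to 15.8 in siRNA 2 replicate 2. CFB (chromosome 6, 31945650 to 31952084, plus strand) overlaps C2, whose product is the classical-pathway counterpart of factor B and which did not exceed 0.343. The sources used here do not state how shared reads were counted, so both values are uncertain.

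Of the protease inhibitors, SERPINA1 was higher with siRNA 1. It had 4.28 and 4.04 in siRNA 1 and 1.11 and 1.47 in siRNA 2, against 0.780 and 0.993 in control. The siRNA 1 libraries were far above the other 4, and the siRNA 2 libraries only just cleared the controls. The means were 4.16 ± 0.170, 1.29 ± 0.252 and 0.886 ± 0.151 (siRNA 1, siRNA 2, control; SD, n = 2), a ratio of 4.70 for siRNA 1 over control. SERPINA1 rose with siRNA 1 (log2 fold change 1.45, SE 0.154, limma adjusted p = 0.0422), in a comparison that called 1.63% of genes, 0.705% higher and 0.923% lower. With siRNA 2 it did not pass (0.28, SE 0.154, adjusted p = 0.316). Since SERPINA1 passed the filter on low values only through siRNA libraries, a rise over control was favoured by the filter. The siRNA 1 call held in 7 of 14 other settings and was lost with upper-quartile scaling (adjusted p = 0.0605), with equal column totals (0.0701) and without either siRNA 1 or either control library (0.201 to 0.220). The control values put SERPINA1 above only 4.07% of tested genes, so the +1 in log2(value + 1) shrinks its log2 fold change of 1.45, which became 2.12, also on the log2 scale, with a pseudocount of 0.1. The gene has 20 annotated transcripts, and the table gives 1 value for all of them.

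SERPINA3, which lies 222 kb from SERPINA1 on chromosome 14, gave no call and had the largest standard error of the 9. It was listed at 0 in siRNA 1 replicate 1 and stood at 1.17 in siRNA 1 replicate 2, had 0.328 and 6.86 in siRNA 2, and 2.79 and 3.92 in control. A listed 0 may not mean absence, since all 13 mitochondrially encoded mRNAs were listed at 0 in all 6 libraries. Both siRNA 1 libraries and siRNA 2 replicate 1 were under the controls, and siRNA 2 replicate 2 was over them, 20.9-fold above its own replicate. For SERPINA3 limma fitted log2 fold changes of −1.55 with siRNA 1 (SE 0.955, adjusted p = 0.451) and −0.42 with siRNA 2 (SE 0.955, adjusted p = 0.797). The second was −1.70 without siRNA 2 replicate 2 (adjusted p = 0.159) and 0.86 without replicate 1 (adjusted p = 0.330), so the sign of the siRNA 2 value was set by which library was left out.

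CP and LCN2 make the metal-linked pair. CP had 8.88 and 8.98 in siRNA 1 and 6.45 and 15.2 in siRNA 2, against 6.69 and 6.58 in control. The siRNA 1 replicates were close together and above control, and the siRNA 2 replicates lay on either side of it. For CP limma fitted log2 fold changes of 0.38 with siRNA 1 (SE 0.400, adjusted p = 0.666) and 0.53 with siRNA 2 (SE 0.400, adjusted p = 0.434). The second was 1.09 without siRNA 2 replicate 1 and −0.04 without siRNA 2 replicate 2. CP (chromosome 3, 149162410 to 149222055) overlaps HPS3 on the opposite strand, which ran from 5.56 in control replicate 2 to 23.3 in siRNA 1 replicate 2. LCN2 had 0.633 and 1.39 in siRNA 1 and 2.82 and 11.4 in siRNA 2, against 0.537 and 0.464 in control. Every siRNA library was above both controls. Of all tested genes, 36.8% had both siRNA 1 libraries above both controls and 33.7% both siRNA 2 libraries. The ratio for LCN2 was the largest of the 9, 5.64 times the control mean in siRNA 2 replicate 1 and 22.9 times in replicate 2. LCN2 had control values under 1 and passed the filter on low values only through siRNA libraries, so this ratio was favoured by the filter and supports nothing. Its log2 fold change of 2.20 with siRNA 2 (SE 0.611, adjusted p = 0.123) did not pass, nor did the 0.40 with siRNA 1 (SE 0.611, adjusted p = 0.787). The siRNA 2 value was 3.05 without siRNA 2 replicate 1 and 1.35 without siRNA 2 replicate 2.

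**Figure D3:**
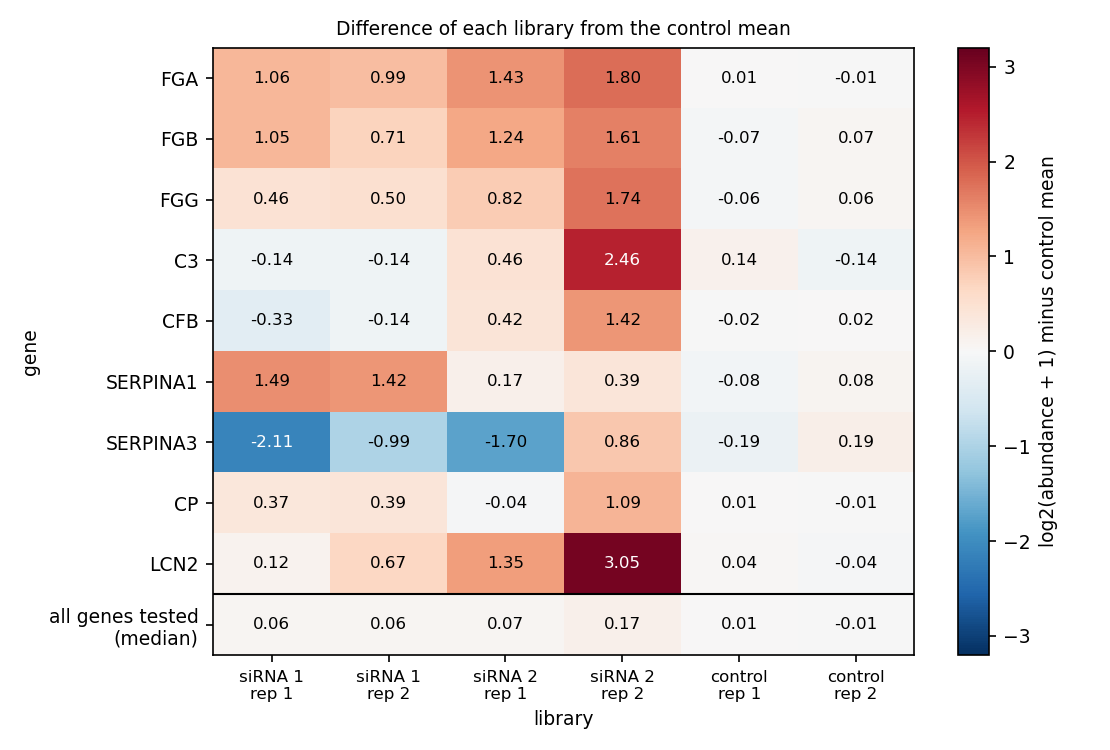
Difference of each library from the control mean on the log2(abundance + 1) scale, for the 9 genes (rows) in 6 libraries (columns), with the median of all tested genes in the bottom row. FGA, FGB and FGG are positive in all 4 siRNA libraries, and the largest values, 3.05 for LCN2 and 2.46 for C3, are in siRNA 2 replicate 2, where the median of all genes is 0.17.

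Counted over the 9 genes, 1 was called with siRNA 1 (SERPINA1, higher) and 1 with siRNA 2 (FGA, higher), against a background of 1.63% and 3% of genes. At an unadjusted p under 0.05 the counts were 3 of 9 with siRNA 1 and 4 of 9 with siRNA 2, against 20.5% and 25.7% of all genes. The median log2 fold change was 0.40 with siRNA 1 and 1.28 with siRNA 2, beside medians of 0.05 and 0.14 over all tested genes. Both siRNA 1 libraries were above both controls for 6 of the 9 and below for 2, where 36.8% and 31.1% of all genes did so. Both siRNA 2 libraries were above both controls for 7 of the 9 and below for 0, where 33.7% and 25.9% of all genes did so. CFB, SERPINA1 and LCN2 had control values under 1 and passed the filter on low values only through siRNA libraries. CFB reached 1 only in siRNA 2, and LCN2 would not have passed without the siRNA 2 libraries. The places of CFB, SERPINA1 and LCN2 in these counts and medians were thus favoured by the filter and support nothing. Both comparisons use the same control libraries. In the mean of both siRNAs limma called 0 of 9, with 4 of 9 at an unadjusted p under 0.05 (1.19% of all genes were called, 0.723% higher and 0.47% lower, and 23.1% passed at that unadjusted p), and the smallest adjusted p was 0.0522, for FGA. With equal column totals or upper-quartile scaling 0 of 9 were called with either siRNA, and the median of all genes with siRNA 2 shifted by −0.20 and −0.19; the fibrinogen log2 fold changes with siRNA 2 were then 1.37, 1.19 and 1.05 (FGA, FGB, FGG; equal totals), still positive.

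The direct comparison of siRNA 1 with siRNA 2 called 1 of the 9, SERPINA1, which was higher with siRNA 1 (log2 fold change 1.18, SE 0.154, limma adjusted p = 0.0424). In that comparison 3.27% of genes were called, 1.91% higher and 1.37% lower. That call was lost in 11 of 14 other settings, among them both scalings (adjusted p = 0.0560 and 0.0689) and leaving out either siRNA 1 or either control library (0.156 to 0.231). The other 8 had negative values, from −0.15 for CP to −1.80 for LCN2 (adjusted p = 0.839 and 0.177), that is, lower with siRNA 1. For 6 of the 9 both siRNA 1 libraries lay below both siRNA 2 libraries and for 1 above them, where 30.8% and 26.4% of all genes did so. CFB and LCN2 are among the 6. Neither would have passed the filter without the siRNA 2 libraries, so their places were favoured by the filter. FGA differed by −0.59 (SE 0.192, adjusted p = 0.165), C3 by −1.60 (SE 0.693, adjusted p = 0.251) and CFB by −1.16 (SE 0.356, adjusted p = 0.153). Without siRNA 2 replicate 2, C3 differed by −0.60, LCN2 by −0.95 and CP by 0.42.

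**Figure D4:**
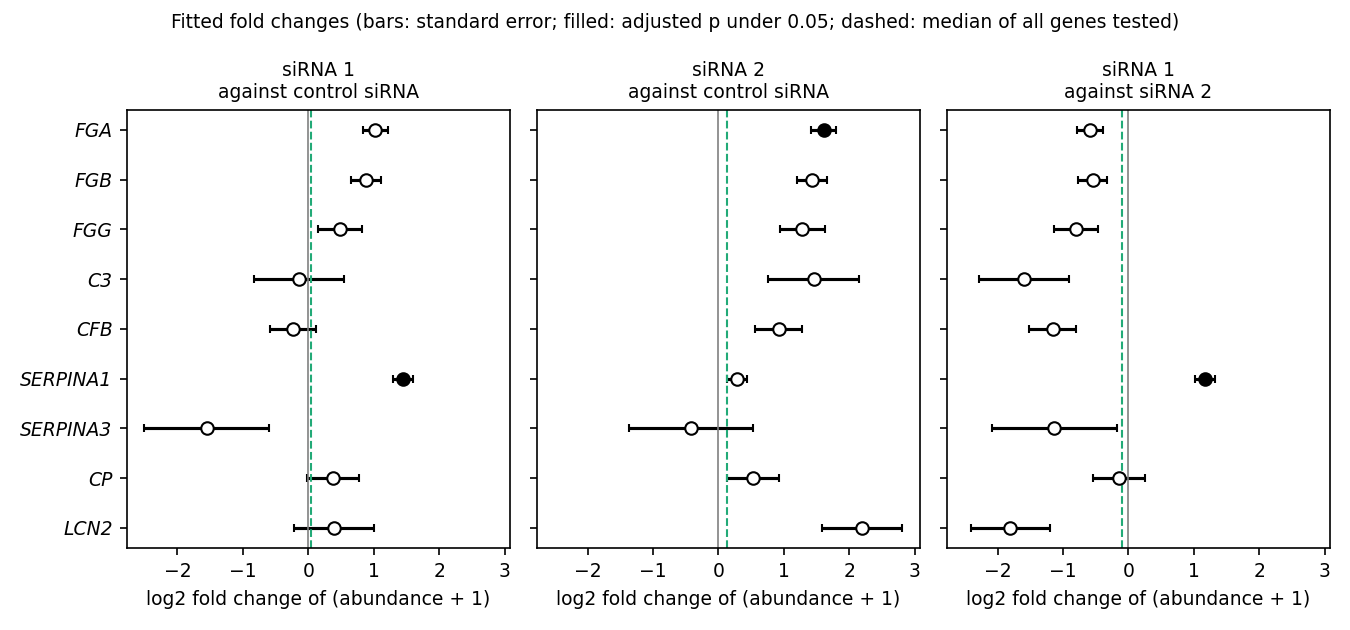
Fitted log2 fold changes of the 9 genes for siRNA 1 against control, siRNA 2 against control and siRNA 1 against siRNA 2; bars are standard errors, filled points have a limma adjusted p under 0.05 and the dashed line is the median of all tested genes. SERPINA1 is filled in the first and last panels at 1.45 and 1.18, and FGA in the middle panel at 1.61.

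In control cells the order of levels, per length, was FGA at 34.1, FGB at 12.96, FGG at 11.6, CP at 6.64, C3 at 4.15, SERPINA3 at 3.36, SERPINA1 at 0.886, CFB at 0.721 and LCN2 at 0.500. Of the neighbours in that order only C3 (4.66 and 3.63) and SERPINA3 (2.79 and 3.92) overlapped between the control libraries; the differences between neighbours were not tested. FGA stood above 90.0% of tested genes in control and LCN2 above 1.27%. With siRNA 2, LCN2 averaged 7.13 ± 6.09 (SD, n = 2) and passed SERPINA1, SERPINA3 and CFB in both libraries.

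Likeness of pattern was measured as the root mean square difference between log2(abundance + 1) profiles over the 6 libraries, each centred on its control mean. FGA and FGB differed by 0.163, which made FGB the 7th nearest to FGA of 11485 genes and FGA the 11th nearest to FGB. FGG was further off, at 0.402 from FGA (rank 190) and 0.312 from FGB (rank 130). Among the genes nearest to FGG, FGA ranked only 836 and FGB 394, and 89 genes lay within 0.2 of FGG. C3 and CFB differed by 0.439, where CFB ranked 464 among the genes nearest to C3 and C3 ranked 1576 among those nearest to CFB. The serpin pair differed by 1.94 (rank 11063 for SERPINA3 from SERPINA1 and 10630 for SERPINA1 from SERPINA3). The nearest gene to FGA was CCT5, a subunit of the cytosolic chaperonin, at 0.0872, followed by DDHD2, a phospholipase, at 0.0924. The nearest to FGB was ATP6V0D1, a subunit of the vacuolar proton pump, at 0.116, and to FGG it was BORCS8 at 0.0775. EIF4A3, an RNA helicase of the exon junction complex, was nearest to C3 at 0.0575, and RBM26 to CFB at 0.0600. BCAS1 was nearest to SERPINA1 at 0.141, MICOS10 to CP at 0.0577 and CFAP36 to LCN2 at 0.191. SERPINA3 had no gene nearer than MMADHC at 0.319. The number of genes within 0.2 of a member ran from 0 for SERPINA3 and 1 for LCN2 to 12 for FGA and 181 for CP.

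Genes of the same pathways were counted from 9 lists, none holding a gene of the 9. Against the all-gene medians of 0.05 with siRNA 1 and 0.14 with siRNA 2, the median log2 fold changes of the tested genes were −0.04 and 0.80 for complement components and −0.05 and 0.16 for complement regulators. They were 0.63 and 0.08 for other acute-phase proteins, 0.05 and 0.10 for coagulation, and 0.25 and 0.04 for other serpins. The acute-phase medians rest on 4 tested genes. ITIH2 among them passed the filter on low values only through siRNA 1, so the 0.63 was favoured by the filter. The interleukin-6 pathway had −0.32 and 0.13, hepatic transcription factors −0.22 and −0.05, copper and LCN2 partners 0.09 and 0.23, and folding and export 0.17 and 0.35. Of 24 other complement components 6 were tested and 8 were listed at 0 in all libraries. C1RL, a protease related to C1r, rose with siRNA 2 and in the mean of both siRNAs: it had 24.0 and 23.3 in siRNA 1 and 28.3 and 20.8 in siRNA 2, against 7.99 and 7.78 in control (siRNA 2 log2 fold change 1.51, SE 0.205, limma adjusted p = 0.0436). No component was called with siRNA 1 (2 of 6 at an unadjusted p under 0.05). C1R and C1S, the paired proteases of the C1 complex, were lower with siRNA 1 than with siRNA 2. C1R had 7.16 and 7.69 in siRNA 1 and 20.9 and 21.6 in siRNA 2, with 11.1 and 12.6 in control, and siRNA 1 differed from siRNA 2 by −1.40 (SE 0.164, adjusted p = 0.0369). C1S had 17.1 and 14.7 in siRNA 1, 36.5 and 40.4 in siRNA 2 and 23.0 and 20.3 in control, and the difference was −1.22 (SE 0.176, adjusted p = 0.0455). The control libraries lay between the siRNA groups for both. C4A and C4B, near-identical copies whose reads can be split, did not exceed 0.134.

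Of 19 complement regulators and receptors 9 were tested. CD59, which blocks the membrane attack complex on the cell surface, fell with siRNA 1: it averaged 14.2 ± 0.194 in siRNA 1, 55.4 ± 4.45 in siRNA 2 and 49.6 ± 0.601 in control (SD, n = 2; log2 fold change −1.74 against control, SE 0.153, limma adjusted p = 0.0381, and −1.89 against siRNA 2, adjusted p = 0.0284). VTN, which encodes vitronectin, rose with siRNA 2, at 5.62 ± 0.201 in siRNA 1, 25.1 ± 6.84 in siRNA 2 and 5.83 ± 0.0779 in control (siRNA 2 log2 fold change 1.91, SE 0.235, adjusted p = 0.0397). CD46, which inactivates C3b on host cells, was the most abundant regulator at 178 ± 5.82, 198 ± 22.1 and 176 ± 6.88 and was not called (adjusted p = 0.980 and 0.574). CLU, a fluid-phase regulator, averaged 121 ± 4.41, 151 ± 69.8 and 116 ± 11.2.

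Of 27 other acute-phase and plasma proteins only FN1, APOH, AMBP and ITIH2 were tested, and 0 were called in any comparison, with 0 at an unadjusted p under 0.05 for either siRNA against control. CRP was listed at 0 in all 6 libraries, SAA1 did not exceed 0.0754 and HP not 0.562. FN1, which encodes fibronectin, averaged 66.9 ± 9.08 in siRNA 1, 68.7 ± 48.9 in siRNA 2 and 38.2 ± 0.954 in control (SD, n = 2; limma adjusted p = 0.510 and 0.495).

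Of 30 coagulation and fibrinolysis genes 18 were tested, and 2 fell with siRNA 1. PLAU, the urokinase that activates plasminogen, averaged 12.9 ± 0.0785 in siRNA 1, 65.5 ± 1.15 in siRNA 2 and 48.9 ± 0.939 in control (SD, n = 2; log2 fold change −1.84 against control, SE 0.144, limma adjusted p = 0.0359, and −2.25 against siRNA 2, adjusted p = 0.0191). PROCR, the endothelial protein C receptor, averaged 14.4 ± 0.743, 55.0 ± 10.01 and 51.9 ± 0.328 (−1.78, SE 0.190, adjusted p = 0.0422, and −1.85, adjusted p = 0.0323). With siRNA 2 limma called 0 of the 18, with 4 at an unadjusted p under 0.05. Of 15 other serpins 9 were tested and 0 called in any comparison, with 4 at an unadjusted p under 0.05 for each siRNA against control. SERPINH1, a collagen chaperone, had the highest mean of these, at 39.8 ± 4.66, 54.3 ± 8.605 and 26.2 ± 3.72.

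The cytokine pathway that drives acute-phase genes in liver had 17 of 20 genes tested. SOCS3, the feedback inhibitor induced by STAT3, fell with siRNA 1: it had 6.05 and 5.09 in siRNA 1 and 20.9 and 11.1 in siRNA 2, against 36.7 and 37.7 in control (log2 fold change −2.54, SE 0.325, limma adjusted p = 0.0490). LIF, an interleukin-6 family cytokine, fell with siRNA 2, with 34.8 and 30.5 in siRNA 1 and 23.1 and 14.8 in siRNA 2, against 68.6 and 65.0 in control (−1.80, SE 0.255, adjusted p = 0.0467). PIM1, a STAT-induced kinase, fell with siRNA 2, with 17.4 and 18.9 in siRNA 1 and 11.8 and 9.79 in siRNA 2, against 30.3 and 31.3 in control (−1.44, SE 0.174, adjusted p = 0.0394). None of the 17 was called higher with either siRNA, and 9 of 17 had an unadjusted p under 0.05 with siRNA 1 and 8 of 17 with siRNA 2, in either direction. STAT3 itself, named after its values were seen, had 38.5 and 36.9 in siRNA 1 and 44.8 and 44.0 in siRNA 2, against 24.8 and 24.0 in control, and did not pass (adjusted p = 0.120 for siRNA 1 and 0.0606 for siRNA 2). BCL3, named likewise, had 28.4 and 31.9 in siRNA 1 and 33.7 and 43.1 in siRNA 2, against 19.5 and 19.7 in control, and did not pass (adjusted p = 0.189 and 0.0770). Genes of this list thus lay on both sides of control. IL6 did not exceed 0.832 in any library. Of 20 transcription factors of the hepatic programme 17 were tested and 0 called in any comparison, with 7 at an unadjusted p under 0.05 for siRNA 1 and 2 for siRNA 2. Among the most abundant, CEBPB averaged 149 ± 2.58, 137 ± 53.9 and 228 ± 2.04 and CEBPD 89.2 ± 2.07, 73.5 ± 33.1 and 46.3 ± 5.14 (siRNA 1, siRNA 2, control; SD, n = 2).

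Of 12 genes of copper handling and LCN2 partners 6 were tested and 0 called in any comparison, with 0 and 1 at an unadjusted p under 0.05 for siRNA 1 and siRNA 2 by limma. SLC40A1, the iron exporter that works with ceruloplasmin, averaged 19.0 ± 0.143 in siRNA 1, 20.3 ± 4.73 in siRNA 2 and 16.6 ± 0.160 in control (SD, n = 2). LRP2, a receptor for LCN2, did not exceed 0.00729, while SLC22A17, another listed LCN2 partner, ran from 1.18 to 3.92 across the libraries. HEPH, the ceruloplasmin homologue, was listed at 0 throughout. Of 22 genes for folding and export of secreted glycoproteins 21 were tested, and CALR, a chaperone for new glycoproteins, was called higher with siRNA 2, at 234 and 207 in siRNA 1 and 340 and 444 in siRNA 2, against 144 and 148 in control (log2 fold change 1.41, SE 0.207, limma adjusted p = 0.0491). The CALR call was lost in 12 of 14 other settings, among them both scalings (adjusted p = 0.0838 and 0.109), no filter (0.0616) and a pseudocount of 0.1 (0.0523), and held only without siRNA 2 replicate 1 or without siRNA 2 replicate 2. The other calls on these lists held in 3 to 7 of their other settings. Every call on these lists was lost without either control library, where limma called 0 genes in any comparison (1260 to 1998 at an unadjusted p under 0.05).

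**Figure D5:**
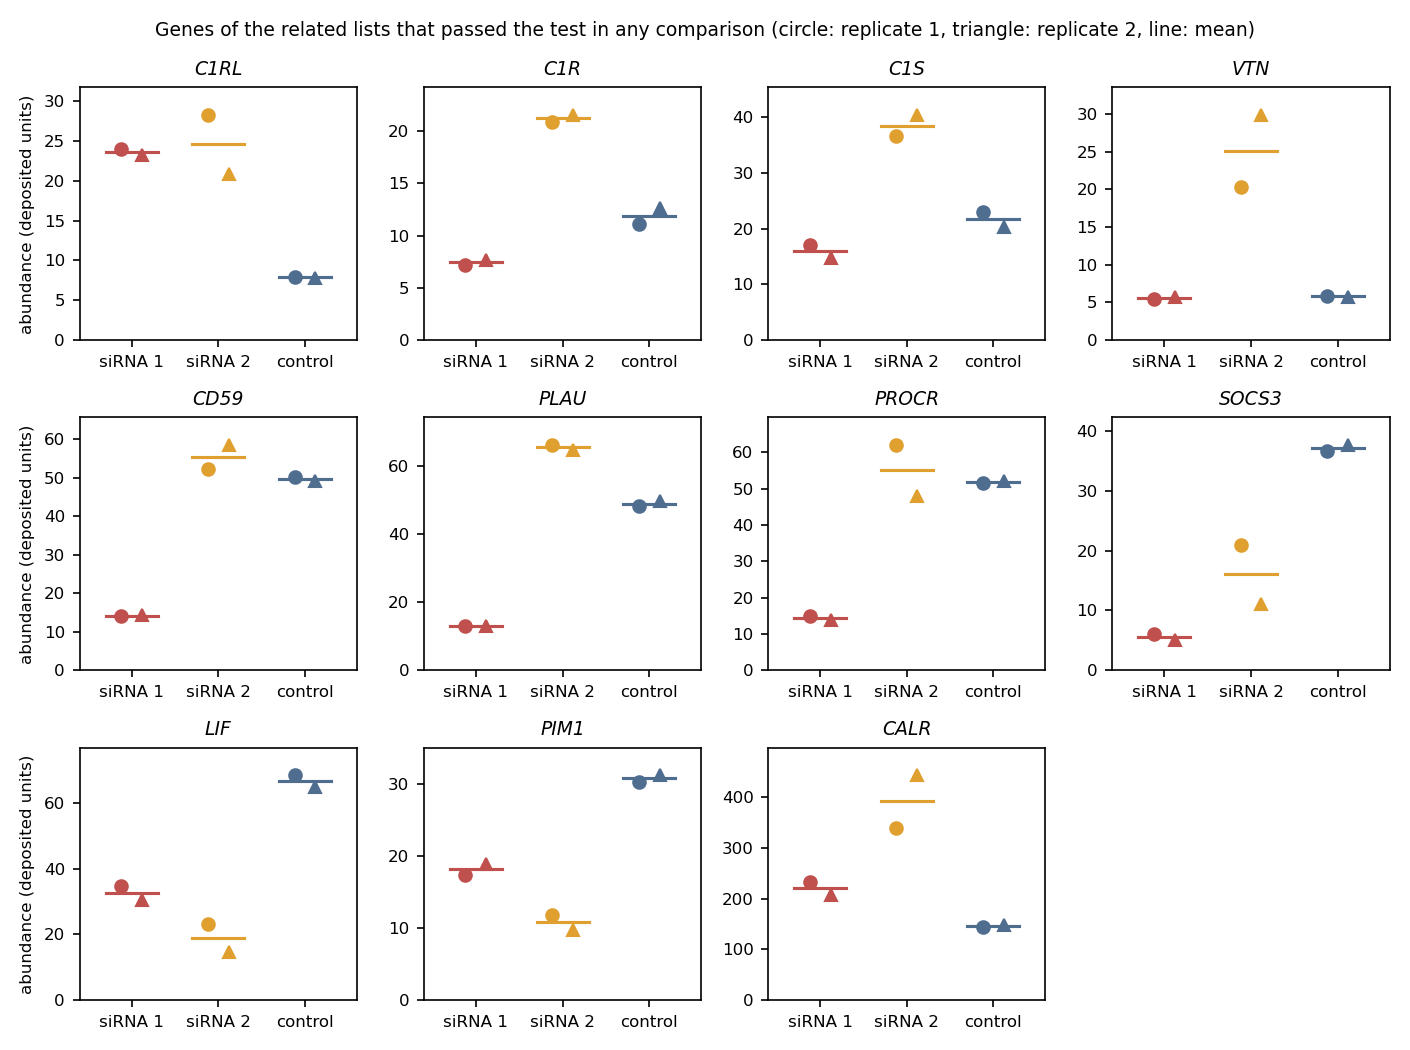
Deposited abundance (y axis, starting at 0) of the 11 pathway genes that passed the test in any comparison, in the siRNA 1, siRNA 2 and control libraries; circles are replicate 1, triangles replicate 2 and lines means (n = 2). The genes were plotted because they passed the test. CD59, PLAU and PROCR are low in siRNA 1, at 14.2, 12.9 and 14.4 on average, and VTN is high in siRNA 2, at 25.1.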

How the data were processed

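Poly(A)-enriched RNA of 6 A549 samples was sequenced from dUTP strand-specific libraries, per the labels' protocols. Trim Galore, STAR, featureCounts and hg38 are named in the submitters' processing notes. The deposited table gives a normalized expression signal per gene symbol, scaled by the authors in a way not given in the sources used here. It holds no counts, and whole reads could not be recovered from its low values, so depth is unknown.

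The 11486 of 19990 genes that reached 1 in 2 or more libraries were tested with limma 3.58.1 in R 4.3.3 on log2(value + 1), with trended and robust variance, 3 groups in 1 fit (3 residual degrees of freedom) and Benjamini-Hochberg adjustment over all tested genes; adjusted p under 0.05 was called. The fit was tested on simulated data. Fold changes on this scale understate those of low genes. The 9 genes and the pathway lists were chosen with earlier results of these data known. Named from each list were the called genes and some of those with the highest means, and some other genes named after their values were seen. A gene that this choice would name is not reported here. Alternatives changed the filter, pseudocount, scaling, replicate block, library weights, samples in the fit, or left out each library. Coordinates came from GENCODE 29, in which 18904 of the symbols were found, and upstream sequences from RefSeq (GRCh38.p14), in which 7 of the 9 genes were found.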

Additional observations from a re-analysis of the deposited data

Results flagged for a closer look

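SERPINA1 was higher with siRNA 1 than with siRNA 2 by 1.18 on the log2 scale (limma adjusted p = 0.0424), a difference between the siRNA groups that passed the test. In the same comparison C1R (−1.40, adjusted p = 0.0369), C1S (−1.22, adjusted p = 0.0455), CD59 (−1.89, adjusted p = 0.0284), VTN (−1.95, adjusted p = 0.0369), PROCR (−1.85, adjusted p = 0.0323) and PLAU (−2.25, adjusted p = 0.0191) were lower with siRNA 1. C3 (−1.60, adjusted p = 0.251) and CFB (−1.16, adjusted p = 0.153) drew attention because both siRNA 1 libraries lay below and both siRNA 2 libraries above the control mean. For these 2 genes the difference between the siRNAs did not pass the test. The share of all tested genes with that pattern was not counted, but 30.8% had both siRNA 1 libraries below both siRNA 2 libraries. The siRNA 1 libraries of C3 sat at the lower control value. CFB passed the filter on low values only through siRNA 2, so its pattern was favoured by the filter and supports nothing.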

How the results depend on the processing

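Over 36 fold changes of the 9 genes, 488 of 495 alternative values kept their direction. Many of these values could not differ from the reported ones. Changes of filter, the replicate block, library weights and fitting only the groups compared left a fold change as it was. So did leaving out a library of a group not compared, so the count of 488 overstates stability. The number of the 9 called with siRNA 1 against control (1) was 0 with upper-quartile scaling, equal column totals or the replicate block. That number was 3 with library weights and 4 with only the groups compared. With siRNA 2 against control (1) it was 0 with no filter, upper-quartile scaling, equal totals, the replicate block, library weights or only the groups compared. For the mean of both siRNAs (0) it was 3 with library weights and 0 to 8 leaving out each library. For siRNA 1 against siRNA 2 (1) it was 0 with no filter, pseudocount 0.1, upper-quartile scaling, equal totals, the replicate block, library weights or only the groups compared, and 0 to 7 leaving out each library. Signs turned for C3 with siRNA 1 (−0.29 to 0.0021 leaving out each library), SERPINA3 with siRNA 2 (−1.70 to 0.86), CP with siRNA 2 (−0.036 to 1.09), SERPINA3 between the siRNAs (−2.41 to 0.15) and CP between the siRNAs (−0.71 to 0.42, and 0.037 with upper-quartile scaling and 0.031 with equal totals); the cause was not tested. Among all tested genes, the settings that left out no single library called 0 to 3001 with siRNA 1 (187 as reported) and 0 to 283 with siRNA 2 (345). These settings called 0 to 791 in the mean of both (137) and 0 to 309 between the siRNAs (376). Calls over all genes thus moved with the setting too, and a higher count of the 9 is not particular to them. No pairing by replicate number was evident over all tested genes: deviations of same-numbered libraries correlated at 0.0459, 0.00136 and −0.00332. The block left 0 genes called in each comparison (2008 to 2556 at an unadjusted p under 0.05, limma). These values cannot exclude that same-numbered samples were handled together. With 2 libraries a group and unknown depth, low genes such as CFB, SERPINA1 and LCN2 carry an error that could not be given.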
